A study of Mus musculus with 12 samples.

Results

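The genes described here are the 44 protein-coding collagen chain genes among the 55401 gene rows of the series, that is, every row whose Ensembl identifier maps in the GENCODE vM21 annotation to a symbol made of Col, a type number, a and a chain number. They were divided by name, without use of any measured value, into 5 fibrillar chains (Col1a1, Col1a2, Col3a1, Col5a1 and Col5a2) and 39 other chains. Libraries were made from leukocytes, so the question was how much collagen message such a sort holds and whether it differs with treatment.

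The cells were live and positive for CD45, the common surface protein of leukocytes, and for CD11c, an integrin subunit found on dendritic cells and on many macrophages. They came from B16-OVA tumours, a mouse melanoma that expresses ovalbumin, in wild-type mice. There were 12 libraries in 4 groups of 3, and all tumours were taken on day 17 of growth. The combined group received 20 Gy on day 10 together with 20 mcg of a fusion protein, and a further 10 mcg on day 14. The 20 Gy group received the radiation only, the fusion protein group received the protein only in the same amounts, and the untreated group received neither. What the fusion protein consists of is not stated. Whether each library of a group is a different mouse is not stated. The p-values therefore cover only the variation among these libraries, part of which may be technical.

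Collagens are proteins of 3 chains wound into a triple helix. The fibril-forming types I, III and V build the fibres of skin and tumour stroma and are made mainly by fibroblasts and related mesenchymal cells, while melanoma lines can also make some of them. Type IV forms the sheet of basement membranes, type VI forms beaded filaments beside cells, the fibril-associated types decorate fibres, and a small transmembrane group stays on the cell surface. Leukocytes are not regarded as a main source of fibrillar collagen.

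The deposited values are read counts divided by a size factor per library, called normalized counts here. Reads assigned to genes numbered 14462032 to 23985496 per library. The leukocyte gene Ptprc, which encodes CD45, stood at 30925 to 53839 normalized counts and Itgax, which encodes CD11c, at 2226 to 9497, so the labelled cell type was present in every library. Some libraries stood apart in other ways. As a measure of reads that fall on genes leukocytes do not use, 1754 odorant, vomeronasal and trace amine receptor genes, here called silent receptor genes, were counted. At least 1 read fell on 57.7% of them in combined library 1, on 79.0% in 20 Gy library 1, on 59.0% in 20 Gy library 2, but only on 4.79% to 39.7% in the other 9 libraries. Melanocyte genes, a measure of tumour cells, summed to 17049 normalized counts in 20 Gy library 3 and to 137 to 5091 elsewhere. In untreated library 1, with a sum of 188, Mitf alone held 154, so low sums are not read as tumour cell content. Mitochondrial reads made up 18.6% of 20 Gy library 3 against 6.95% to 14.3% of the others. Results that rest on these libraries are therefore given with and without them.

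Collagen message was scarce. All 44 chains together took 452 to 3512 reads per library, and 24 of the 44 chains averaged under 20 normalized counts over the 12 libraries. A read was found in every library for 16 chains. At least 10 normalized counts in every library were reached by 6 of the 39 other chains and by 0 of the 5 fibrillar chains. For 18 chains, all 5 fibrillar ones among them, the highest value was that of 20 Gy library 3. It was that of 20 Gy library 1 for 14 chains and of 20 Gy library 2 for 4. The most genes with a read, 43326, were also found in 20 Gy library 1, against 22100 to 36972 in the others. How often each library was highest among all genes was not counted. No chain was highest in a fusion protein library. In bulk RNA, fewer cells of a type and less RNA per cell cannot be told apart.

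**Figure D1:**
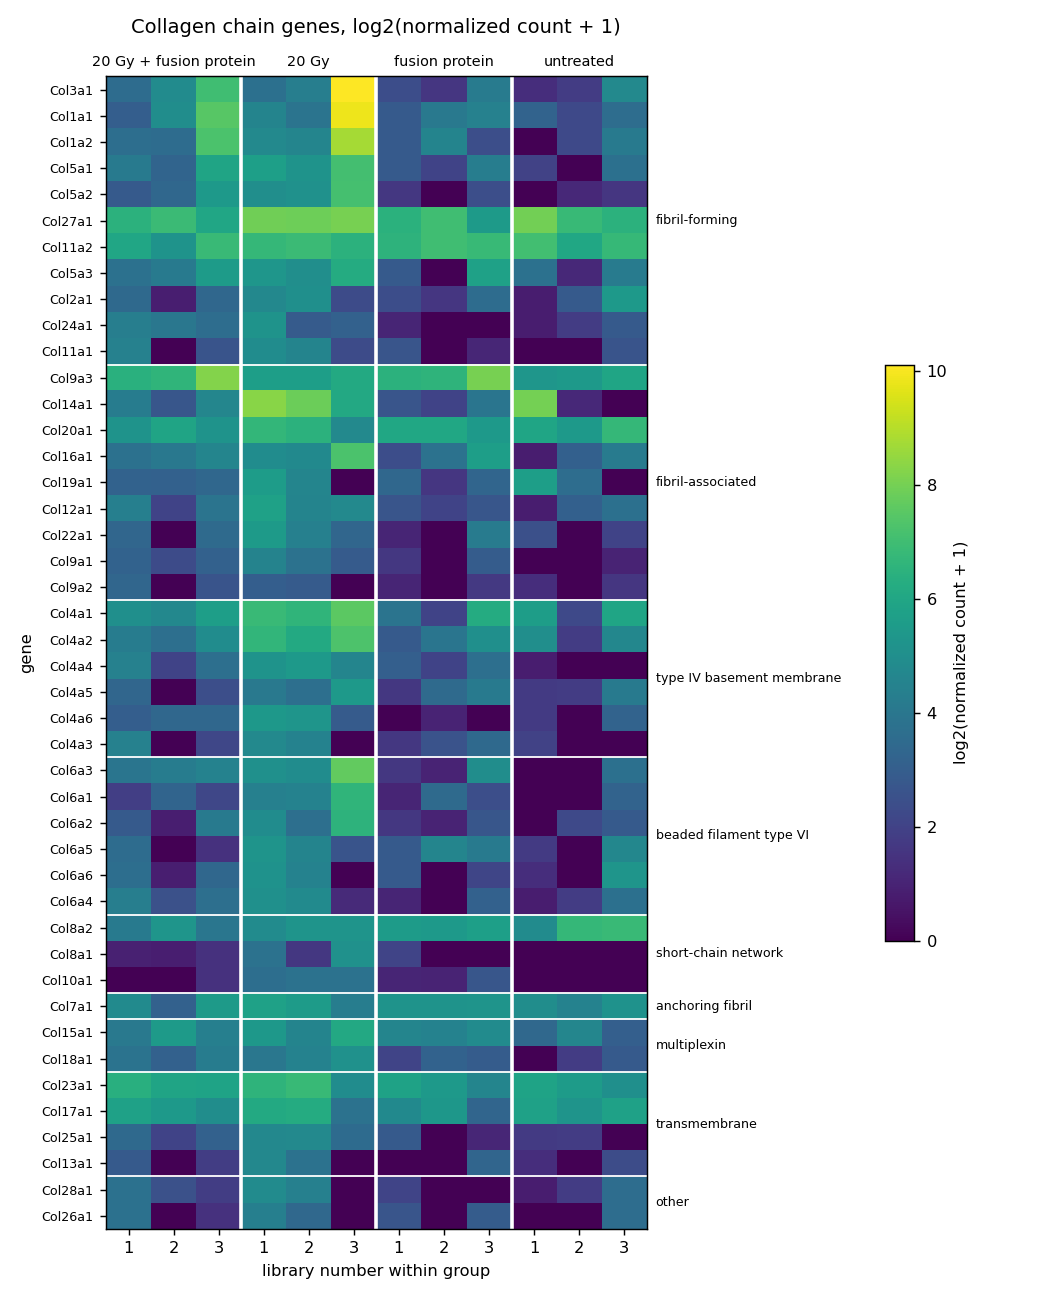
Normalized counts of the 44 chains as log2(normalized count + 1), with chains in rows grouped by family and libraries 1 to 3 of each group in columns, combined at the left and untreated at the right. The 5 fibrillar chains at the top are brightest in 20 Gy library 3 and next in combined library 3, while many chains with few reads are lit in 20 Gy libraries 1 and 2.

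The fibrillar chains carried most of their counts in a single library. Their sum was 53.0, 87.3 and 561 normalized counts in combined libraries 1 to 3, 143, 125 and 2726 in 20 Gy libraries, 25.4, 43.6 and 65.9 in fusion protein libraries, and 12.7, 11.2 and 68.3 in untreated libraries. Thus 20 Gy library 3 held 69.5% of all fibrillar counts of the series, 4.86 times the amount of the next library, which was combined library 3 with 14.3%. The group means were 234 ± 284 in combined, 998 ± 1496 in 20 Gy, 45.0 ± 20.3 in fusion protein and 30.7 ± 32.5 in untreated samples (SD, n = 3 each), so the SD exceeded the mean in every group but fusion protein. The fibrillar share of all collagen counts was 59.3% in 20 Gy library 3, 34.8% in combined library 3 and 1.17% to 11.6% in the other 10.

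Col1a1 and Col1a2 encode the chains of type I collagen, the main protein of connective tissue fibres. Col1a1 had 7.19, 29.9 and 178 normalized counts in combined libraries, 22.9, 13.9 and 923 in 20 Gy libraries, 6.35, 16.2 and 20.9 in fusion protein libraries and 8.24, 3.74 and 11.4 in untreated libraries. Col1a2 had 11.69, 11.01 and 152 in combined, 26.4, 23.6 and 428 in 20 Gy, 6.35, 22.3 and 4.40 in fusion protein and 0, 3.74 and 16.6 in untreated libraries. For both chains library 3 was the highest of the combined and of the 20 Gy group, and the 3 values of the 20 Gy group lay above all 3 untreated values, whereas the combined values overlapped the untreated ones.

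Col3a1 encodes the single chain of type III collagen, which mixes into type I fibres. It had 10.8, 28.3 and 129 normalized counts in combined libraries, 12.3, 19.3 and 1102 in 20 Gy libraries, 4.23, 2.03 and 17.6 in fusion protein libraries and 1.5, 2.5 and 25.9 in untreated libraries. Library 3 was highest in all 4 groups, and untreated library 3 lay above 20 Gy libraries 1 and 2, so these groups overlapped. Of its 12 values, 20 Gy library 3 alone held 81.3%.

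Col5a1 and Col5a2 encode chains of type V collagen, which sits inside type I fibres and limits their width. Col5a1 had 17.1, 8.65 and 59.6 normalized counts in combined, 51.0, 35.4 and 133 in 20 Gy, 6.35, 3.04 and 18.7 in fusion protein and 3.00, 0 and 12.4 in untreated libraries. Col5a2, which lies beside Col3a1 on chromosome 1 in the opposite orientation, had 6.29, 9.44 and 43.2 in combined, 30.8, 33.2 and 140 in 20 Gy, 2.12, 0 and 4.40 in fusion protein and 0, 1.25 and 2.07 in untreated libraries. The 20 Gy values of both type V chains lay above every untreated and every fusion protein value. The combined values of Col5a2 did so too. The share held by 20 Gy library 3 was 38.3% for Col5a1 and 51.3% for Col5a2, less than the 74.3% of Col1a1 and 60.6% of Col1a2.

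**Figure D2:**
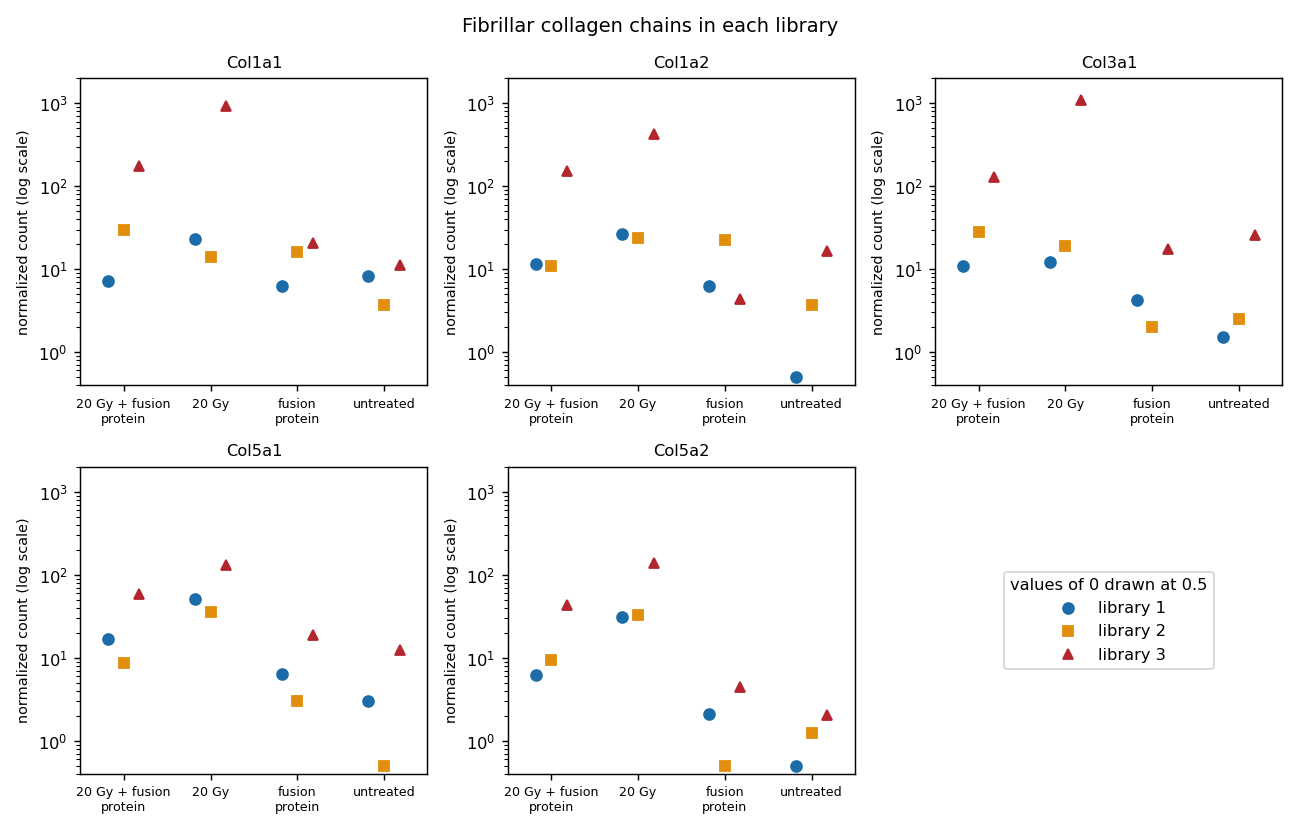
Normalized counts of the 5 fibrillar chains on a log axis, a panel per chain, groups from combined at the left to untreated at the right, markers for libraries 1 to 3 and values of 0 drawn at 0.5. The red triangles of the 20 Gy and combined groups, library 3, stand above the other libraries of these groups in every panel, from 43.2 (Col5a2, combined) to 1102 (Col3a1, 20 Gy).

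The promoters of a fibrillar pair that differed in how far they were confined to 20 Gy library 3 are shown for their unlike composition. Both windows hold the 250 bases before the RefSeq start in build GRCm38.p6 on the plus strand, Col3a1 at chr1:45311288-45311537 and Col5a1 at chr2:27886175-27886424. Capitals mark the TATA box TATAAA in Col3a1 and the GC box, GGGCGG or its reverse complement CCGCCC, in Col5a1.
Col3a1: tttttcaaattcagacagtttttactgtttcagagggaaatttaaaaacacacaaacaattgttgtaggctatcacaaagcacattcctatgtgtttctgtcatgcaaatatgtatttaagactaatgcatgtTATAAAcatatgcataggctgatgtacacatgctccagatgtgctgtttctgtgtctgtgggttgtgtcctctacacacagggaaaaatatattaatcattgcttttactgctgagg
Col5a1: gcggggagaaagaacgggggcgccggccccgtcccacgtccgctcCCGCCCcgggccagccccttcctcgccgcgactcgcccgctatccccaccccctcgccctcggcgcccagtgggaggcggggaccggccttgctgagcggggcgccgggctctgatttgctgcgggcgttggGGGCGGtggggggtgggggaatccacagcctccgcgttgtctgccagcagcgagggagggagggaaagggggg
The motifs searched, each on both strands, were the TATA box with the letters TATAAA, the CCAAT box, and the GC box with the letters GGGCGG. The CCAAT and GC boxes can share bases. In that order the motifs occur in 12.4%, 33.8% and 32.7% of the 32851 RefSeq promoter windows of this length. Of 38 windows found for 35 chains, searched over the same 250 bases, 5 held the TATA box, 13 the CCAAT box and 22 the GC box. A match is only a description of these letters. Entries for the other members are named only.

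In the comparison of 20 Gy with untreated samples, which asks what radiation alone did, 0 of the 39 chains that passed the filter were called by limma at an adjusted p of 0.05, as were 0 of 18274 genes (0%). The filter kept genes with at least 10 normalized counts in at least 3 libraries, and 5 of the 44 chains failed it (Col4a6, Col8a1, Col9a1, Col9a2 and Col13a1). Since a chain can pass through its high group alone, counts over the 39 are descriptions. An unadjusted p under 0.05 was reached by 19 chains, all higher after 20 Gy, against 6.74% of genes, and the groups did not overlap for 18 chains, 46.2%, against 6.73% of genes. edgeR called 0 chains and DESeq2 called 2, Col4a4 and Col5a2, against 0.246% of genes. In another comparison, combined against 20 Gy, DESeq2 gave no adjusted p for Col1a1, Col1a2 and Col3a1. Its lack of a call for these chains is therefore not read as a test here.

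Fold changes are log2 differences of log2(normalized count + 1), which understate the change of genes with few reads, and the ± is the SE of the limma fit. All 5 fibrillar chains were higher in 20 Gy than in untreated samples, with a median of 3.92 against 0.04 for all genes tested. Col5a2 differed by 4.81 ± 0.94 (limma adjusted p = 0.401) and Col5a1 by 4.07 ± 1.03 (adjusted p = 0.529). Col1a2 differed by 3.92 ± 1.40, Col3a1 by 3.44 ± 1.60 and Col1a1 by 3.08 ± 1.45, each at a limma adjusted p of 0.721 or 0.722. Untreated libraries held only 3 reads of Col5a2 in all, against 173 reads in 20 Gy libraries, a ratio of 63.2 with a 95% interval of 21.3 to 309 that covers counting error only.

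Samples of the same number had residual correlations of 0.496, 0.156 and 0.456 in this comparison, weakest for number 2. The replicate number was also fitted as a block. With it, 4 chains rose after 20 Gy: Col5a1 (limma adjusted p = 0.0374), Col5a2, Col4a4 and Col6a3 (each adjusted p = 0.0438), among 70 genes called (0.383%). Without 20 Gy library 3 the fibrillar median was 2.57, with all 5 chains still higher, but the remaining 20 Gy libraries are those with most silent receptor reads. Per kilobase and relative to the silent receptor genes, the median fibrillar chain stood at 2.30 and 2.38 times their level in 20 Gy libraries 1 and 2, against 1.825, 4.04 and 4.49 times in untreated libraries. Col1a1 stood at 2.49 and 2.38 times in these 20 Gy libraries, against 15.0, 9.06 and 5.32 times in untreated libraries, where it had 11, 3 and 11 reads. Col5a2 went the other way, at 2.30 and 3.89 times against 0, 2.07 and 0.66 times. Col5a1 was at 4.30 and 4.67 times against 4.22, 0 and 4.49 times. Col1a2 and Col3a1 overlapped between these libraries. Without 20 Gy libraries 1 and 2 and combined library 1, which leaves 20 Gy library 3 alone in its group and borrows its spread from the other groups, the fibrillar median was 6.62. None of these fits without a library called a chain.

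The combined and untreated groups were compared to see the effect of both treatments together. Again limma called 0 of 39 chains, against 1.4% of genes, while 8 chains reached an unadjusted p under 0.05, against 12.5% of genes. edgeR called 0 chains and DESeq2 called 3, Col4a4, Col5a2 and Col8a2, against 4.13% of genes. The lack of a DESeq2 call for Col1a1, Col1a2 and Col3a1 is again not read as a test. The 5 fibrillar chains were all higher, with a median difference of 2.54. Col5a2 differed by 2.98 ± 0.94 (limma adjusted p = 0.196), Col1a2 by 2.71 ± 1.40, Col5a1 by 2.54 ± 1.03, Col3a1 by 2.53 ± 1.60 and Col1a1 by 2.13 ± 1.45. The combined values did not overlap the untreated ones for 8 chains, 20.5%, against 10.3% of genes, and Col5a2 was the fibrillar member among them. With the replicate block 6 chains were called among 1413 genes (7.73%), of which Col5a1 (limma adjusted p = 0.013), Col5a2 (0.0259), Col6a3 (0.0314), Col4a4 (0.0235) and Col9a3 (0.0141) rose and Col8a2 (0.0496) fell. Without combined library 3 the fibrillar median was 1.59. Leaving out combined library 2 added a call for Col4a4 (limma adjusted p = 0.0361). Leaving out untreated library 1 added a call for Col8a2 (limma adjusted p = 0.0306). The share of all genes called in these fits is not given, so both calls are descriptions.

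The fusion protein alone was compared with untreated samples next. limma called 0 of 39 chains, against 0.744% of genes, and 2 chains reached an unadjusted p under 0.05, against 8.41% of genes. edgeR and DESeq2 also called 0, but DESeq2 gave no adjusted p for at least Col3a1. The fusion protein values lay above all untreated ones for 4 chains (Col4a4, Col7a1, Col9a3 and Col10a1), 10.3%, against 5.94% of genes. The fibrillar median was 0.78, and the values of these chains overlapped between the groups throughout. Col5a1 differed by 1.15 ± 1.03, Col1a2 by 1.16 ± 1.40 and Col1a1 by 0.78 ± 1.45, with limma adjusted p-values of 0.924 to 0.998. Col5a2 at 0.43 ± 0.94 and Col3a1 at 0.11 ± 1.60 changed sign when fusion protein library 3 or untreated library 1 was left out. Leaving out untreated library 2, or a fit with edgeR or DESeq2, also gave Col3a1 the opposite sign.

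Adding the fusion protein to radiation was examined as combined against 20 Gy. limma called 0 of 39 chains, against 1.03% of genes, and 8 chains reached an unadjusted p under 0.05, 7 of them lower in combined samples, against 8.99% of genes. edgeR called 0 chains and DESeq2 called 1, Col4a2, against 3.01% of genes, but DESeq2 gave no adjusted p for Col1a1, Col1a2 and Col3a1. All 3 combined values lay below all 20 Gy values for 12 chains, 30.8%, against 9.55% of genes, none of them fibrillar, and above them for 1 chain (Col9a3), against 8.36% of genes. The fibrillar chains were lower in combined samples, with a median of −1.21, from −1.84 ± 0.94 for Col5a2 to −0.91 ± 1.60 for Col3a1. That direction rested on 20 Gy library 3. Without it Col1a1 stood at 0.92, Col3a1 at 1.11 and Col1a2 at 0.14, all higher in combined samples, while Col5a1 at −0.99 and Col5a2 at −1.14 remained lower. Col1a1 also changed sign, to 0.11, without combined library 1.

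Combined against fusion protein, which isolates radiation in treated mice, gave 0 of 39 chains by limma, edgeR and DESeq2, against 0% of genes. DESeq2 gave no adjusted p for at least Col1a2. By limma, 2 chains had an unadjusted p under 0.05, against 2.92% of genes. The fibrillar median was 1.55. Col5a2 differed by 2.55 ± 0.94, and its 3 combined values lay above all 3 fusion protein values. So did those of Col23a1 and Col24a1, which makes 3 chains, against 4.48% of genes, while those of 1 chain, Col8a2, lay below, against 3.81% of genes.

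Other measures moved with the fibrillar chains across libraries. The 12 fibroblast markers, of which 5 passed the filter, summed to 106, 146 and 414 normalized counts in combined, 211, 129 and 361 in 20 Gy, 59.2, 22.3 and 214 in fusion protein and 66.6, 37.4 and 93.1 in untreated libraries. Combined library 3 and 20 Gy library 3 were the highest for fibroblast markers and for fibrillar chains, in opposite order, but that order rested on Fap, a fibroblast protease gene, with 279 counts in combined library 3. Without Fap the other 11 markers summed to 49.4, 44.8 and 135.5 in combined, 139, 83.6 and 279 in 20 Gy, 28.6, 20.3 and 36.3 in fusion protein and 29.2, 17.5 and 47.6 in untreated libraries. Decorin (Dcn), a small proteoglycan of fibroblasts, had 2.70, 1.57 and 18.1 in combined, 4.40, 4.29 and 78.5 in 20 Gy, 1.06, 1.01 and 0 in fusion protein and 3.00, 2.5 and 0 in untreated libraries. Lumican (Lum) was at 0 in 7 libraries and reached 14.4 in 20 Gy library 3 and 5.18 in combined library 3. Other members did not peak there. The receptor genes Pdgfra and Pdgfrb were highest in 20 Gy library 1, at 26.4 and 41.4, against 20.9 and 27.5 in 20 Gy library 3. Clec3b was highest in untreated library 3, at 16.6, and Tcf21 was at 0 in 20 Gy library 3.

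The 12 melanocyte markers, 11 of which passed the filter, did not follow the same order. They summed to 306, 455 and 1427 normalized counts in combined, 326, 299 and 17049 in 20 Gy, 176, 162 and 5091 in fusion protein and 188, 137 and 2015 in untreated libraries. Fusion protein library 3 ranked 2 of 12 for melanocyte markers and 7 for fibrillar chains, and combined library 3 ranked 4 for melanocyte markers and 2 for fibrillar chains. In each group library 3 was the highest for both sums. Of the lower melanocyte sums, Mitf alone held 154 in untreated library 1, 140 in fusion protein library 2 and 229 in combined library 1. The part of fibroblasts or of tumour cells in the fibrillar signal was not tested. Of the other marker lists, endothelial genes summed to 2691, 1721 and 3018 in combined libraries and to 807 to 1424 in the 9 others. Most of the combined sums was the gene Kdr alone, with 2351, 1449 and 2778 counts. Of 6 endothelial genes tested, 1 was higher and 5 were lower in combined than in untreated samples, with a median of −0.92. Macrophage genes were highest in 20 Gy library 3, at 15501. Basement membrane genes were also highest there, at 2242. Pericyte genes were at 150 in combined library 3 and 212 in 20 Gy library 3, against 202 to 365 in the rest. Mcam, Notch3 and Kcnj8 held most of the pericyte sums. No keratinocyte marker of 5 passed the filter. The part of these cell types was not tested either.

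**Figure D3:**
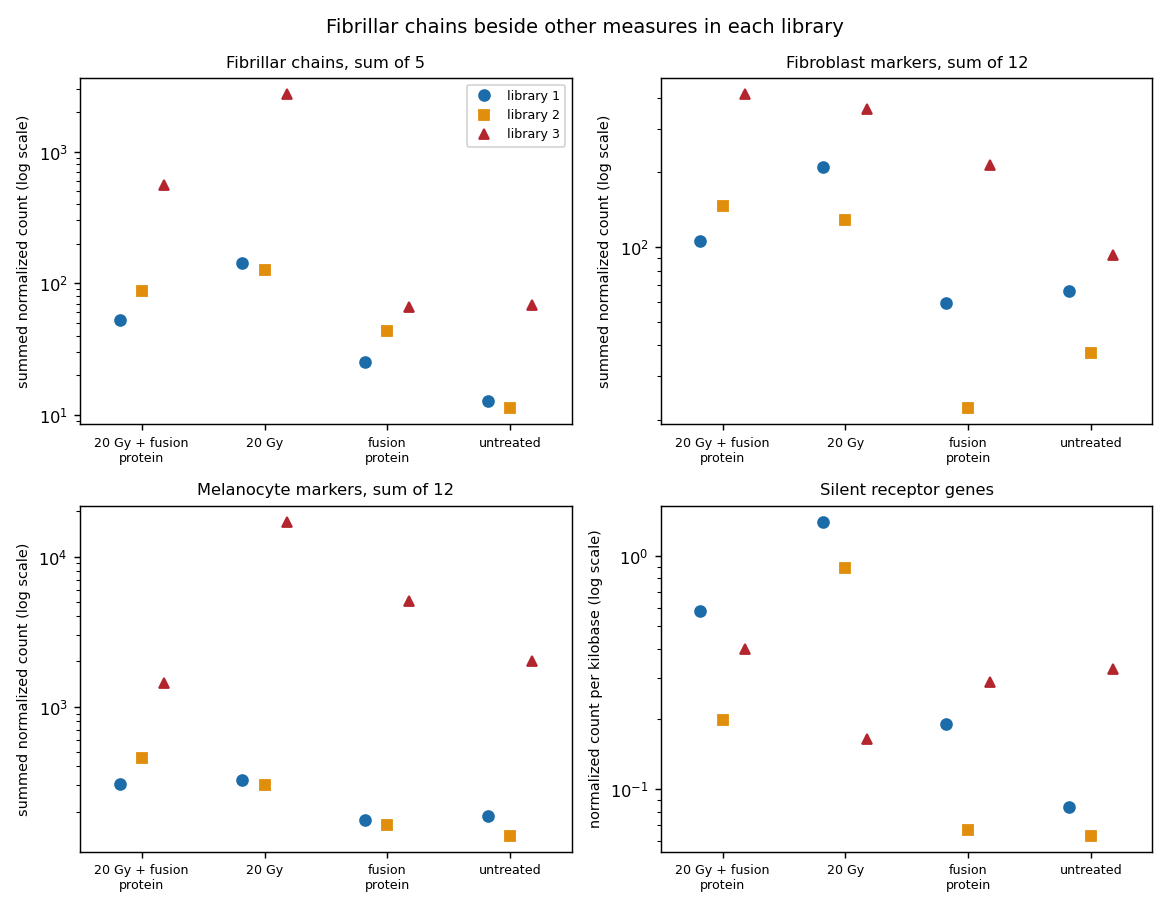
Summed normalized counts of the fibrillar chains, of 12 fibroblast markers and of 12 melanocyte markers, and normalized counts per kilobase of exon of the silent receptor genes, all on log axes, for libraries 1 to 3 of each group from combined to untreated. 20 Gy library 3 is highest for fibrillar chains (2726) and melanocyte markers (17049), combined library 3 for fibroblast markers (414), and 20 Gy library 1 for silent receptor genes (1.40).

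The 39 other chains behaved differently from the fibrillar 5. Their sum was 841, 667 and 1052 normalized counts in combined libraries, 2088, 1729 and 1870 in 20 Gy libraries, 639, 702 and 1017 in fusion protein libraries and 1079, 553 and 960 in untreated libraries. All 3 libraries of the 20 Gy group lay above all 9 others, and the other groups overlapped. The means were 854 ± 193 in combined, 1896 ± 181 in 20 Gy, 786 ± 203 in fusion protein and 864 ± 276 in untreated samples (SD, n = 3 each). The median log2 difference of the 34 tested other chains was 1.96 for 20 Gy over untreated, 0.70 for combined over untreated, 0.13 for fusion protein over untreated and −1.24 for combined over 20 Gy.

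Background reads moved with these chains. The median other chain had 4.62 normalized counts per kilobase of exon in 20 Gy library 1, 3.48 in 20 Gy library 2 and 2.22 in 20 Gy library 3, and silent receptor genes had 1.40, 0.89 and 0.16 in the same libraries. The ratio of the median other chain to the silent receptor genes was 3.21 to 5.20 in 11 libraries and 13.6 in 20 Gy library 3. For the fibrillar chains that ratio was 210 in 20 Gy library 3, 30.7 in combined library 3 and 1.83 to 6.19 in the other 10. With the silent receptor level as a covariate the median of the other chains for 20 Gy over untreated was 1.03 and that of the fibrillar chains 5.07. Without the 3 libraries richest in silent receptor reads the other chains had a median of 1.38, with 21 of 34 higher, against 31 of 34 with all libraries. With the covariate the median of the other chains was −0.007 for combined over untreated, 0.06 for fusion protein over untreated and −0.79 for combined over 20 Gy. The value of 0.13 for fusion protein over untreated was −0.075 without untreated library 2 and −0.005 without fusion protein library 3.

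**Figure D4:**
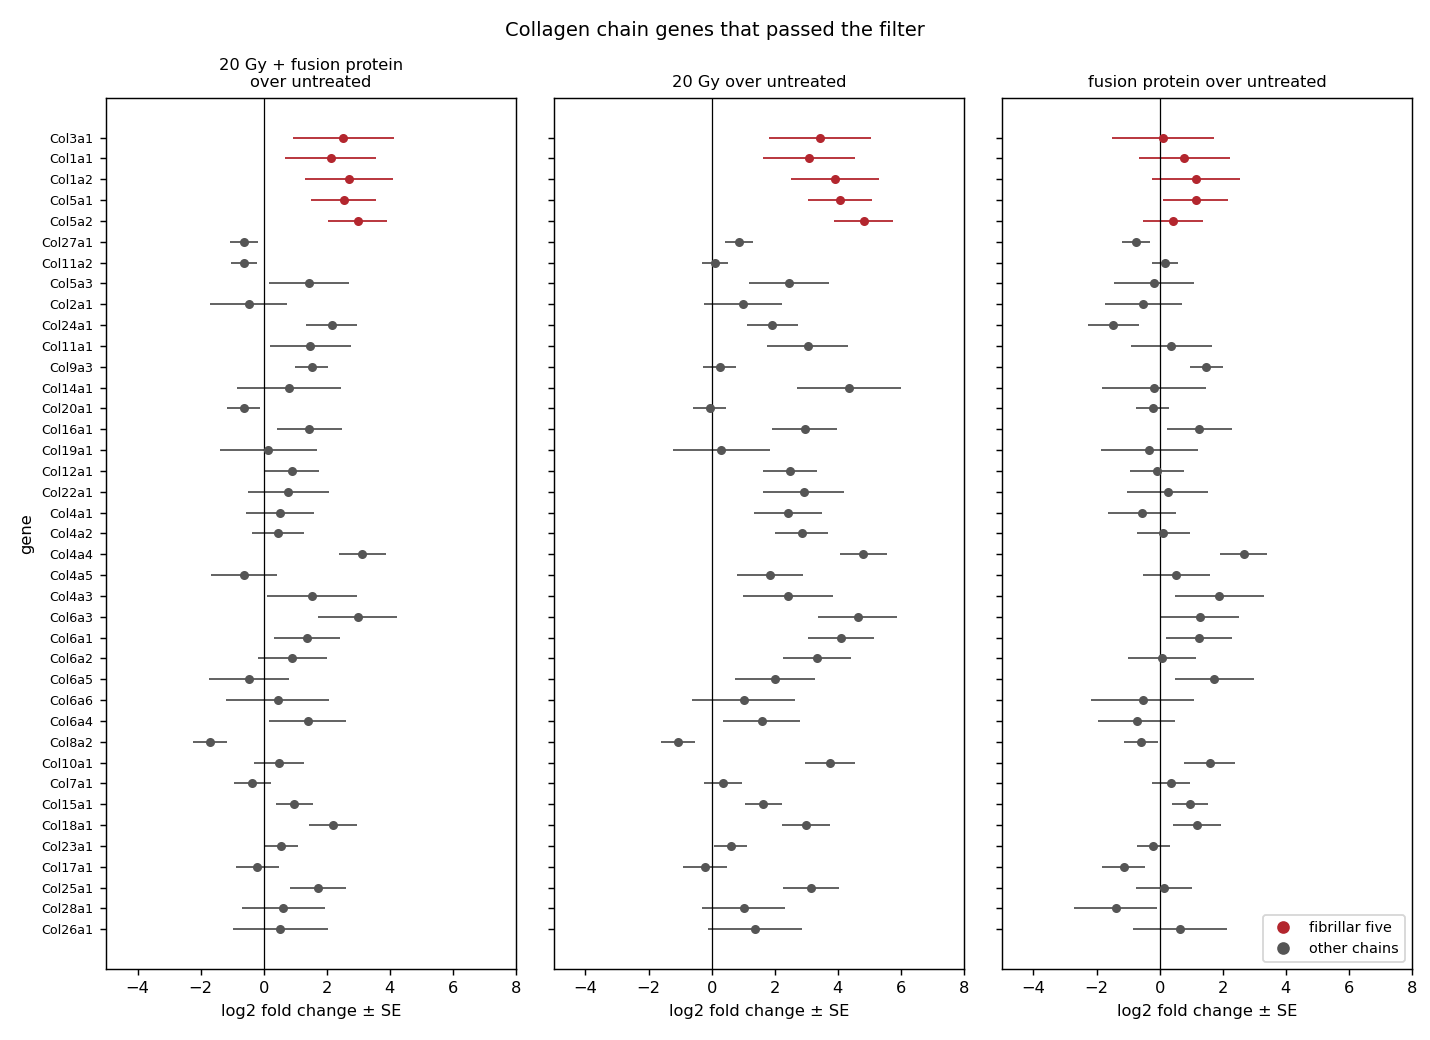
Log2 fold change ± SE from limma of the 39 chains that passed the filter, for combined, 20 Gy and fusion protein samples over untreated samples, with fibrillar chains in red and chains ordered by family. In the 20 Gy panel 36 of 39 points lie right of 0, in the combined panel 30 and in the fusion protein panel 24. Of all tested genes 53.3%, 51.3% and 49.5% were higher in these comparisons. The 24 fell to 20 without untreated library 2 or fusion protein library 3. No chain passed an adjusted p of 0.05.

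The other chains with the highest level per kilobase were Col9a3, Col11a2, Col20a1, Col14a1, Col27a1, Col8a2, Col23a1 and Col4a1, at means of 26.7 to 7.91 normalized counts per kilobase, against 15.8 for Col1a1 and 2.37 for Col5a2. The highest library held 11.3% of the counts of Col11a2, 14.5% of Col20a1, 15.5% of Col27a1 and 16.1% of Col23a1.

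Col9a3 encodes a chain of type IX, a fibril-associated collagen known from cartilage. It had 83.6, 97.5 and 300 normalized counts in combined, 50.2, 49.3 and 69.4 in 20 Gy, 89.9, 94.2 and 260 in fusion protein and 38.9, 42.4 and 60.0 in untreated libraries. All 6 libraries that received the fusion protein lay above all 6 that did not. The difference was 1.47 ± 0.52 for fusion protein over untreated (limma adjusted p = 0.399), 1.52 ± 0.52 for combined over untreated (0.243) and 1.26 ± 0.52 for combined over 20 Gy (0.488). With the replicate block Col9a3 rose in fusion protein over untreated samples (limma adjusted p = 0.0261), the 1 chain called there against 3.29% of genes. Its partners Col9a1 and Col9a2, needed for the type IX protein, averaged 5.91 and 2.87 normalized counts and failed the filter. Col9a3 shares exon bases with Tcfl5 on the opposite strand, which had 43 reads in all 12 libraries, and the strand setting of the counting is not stated.

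Col27a1 is a fibril-forming chain outside the classical 5. It had 88.1, 116 and 63.0 normalized counts in combined, 238, 236 and 264 in 20 Gy, 86.7, 128 and 45.0 in fusion protein and 246, 110 and 89.0 in untreated libraries. The 20 Gy libraries lay close together and above every combined library, by a log2 difference of −1.50 ± 0.44 for combined over 20 Gy (limma adjusted p = 0.209). Untreated library 1 lay within the 20 Gy range.

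Col14a1, a fibril-associated chain, was split within the untreated group. It had 18.0, 5.5 and 24.2 normalized counts in combined, 317, 226 and 68.1 in 20 Gy, 5.29, 3.04 and 14.3 in fusion protein and 255, 1.25 and 0 in untreated libraries. Untreated library 1 thus lay with the 20 Gy libraries, which were all above every combined library. In the same libraries the 9 macrophage markers summed to 10014, 8198 and 13059 in combined, 14532, 12682 and 15501 in 20 Gy, 7807, 10138 and 7498 in fusion protein and 13601, 4024 and 5799 in untreated samples. The part of macrophages in the Col14a1 counts was not tested.

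Col8a2, a short-chain collagen of network-forming type VIII, was lower in combined samples, at 17.1, 37.8 and 14.7 normalized counts, against 28.5, 106 and 116 in untreated libraries, with 28.2, 36.4 and 36.6 in 20 Gy and 45.5, 43.6 and 50.5 in fusion protein libraries. The combined and untreated groups overlapped through untreated library 1. The difference was −1.69 ± 0.54 (limma adjusted p = 0.201). Against fusion protein libraries all 3 combined values were lower.

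Col11a2, Col20a1 and Col23a1 showed no group apart from the rest. Col11a2, a fibril-forming chain of cartilage, ranged from 35.4 to 113 in combined, 90.3 to 118 in 20 Gy, 92.0 to 129 in fusion protein and 63.7 to 132 normalized counts in untreated libraries. Col20a1 had 35.1 to 58.2 in combined, 26.2 to 103 in 20 Gy, 42.8 to 64.5 in fusion protein and 43.7 to 106 in untreated libraries, and shares exon bases on the same strand with BX649560.1, which had 1431 reads. Col23a1, a transmembrane collagen, had 57.8 to 82.7 in combined, 28.8 to 111 in 20 Gy, 23.1 to 56.1 in fusion protein and 32.1 to 57.7 in untreated libraries. The combined values of Col23a1 lay just above all untreated ones, at 57.8 against 57.7.

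**Figure D5:**
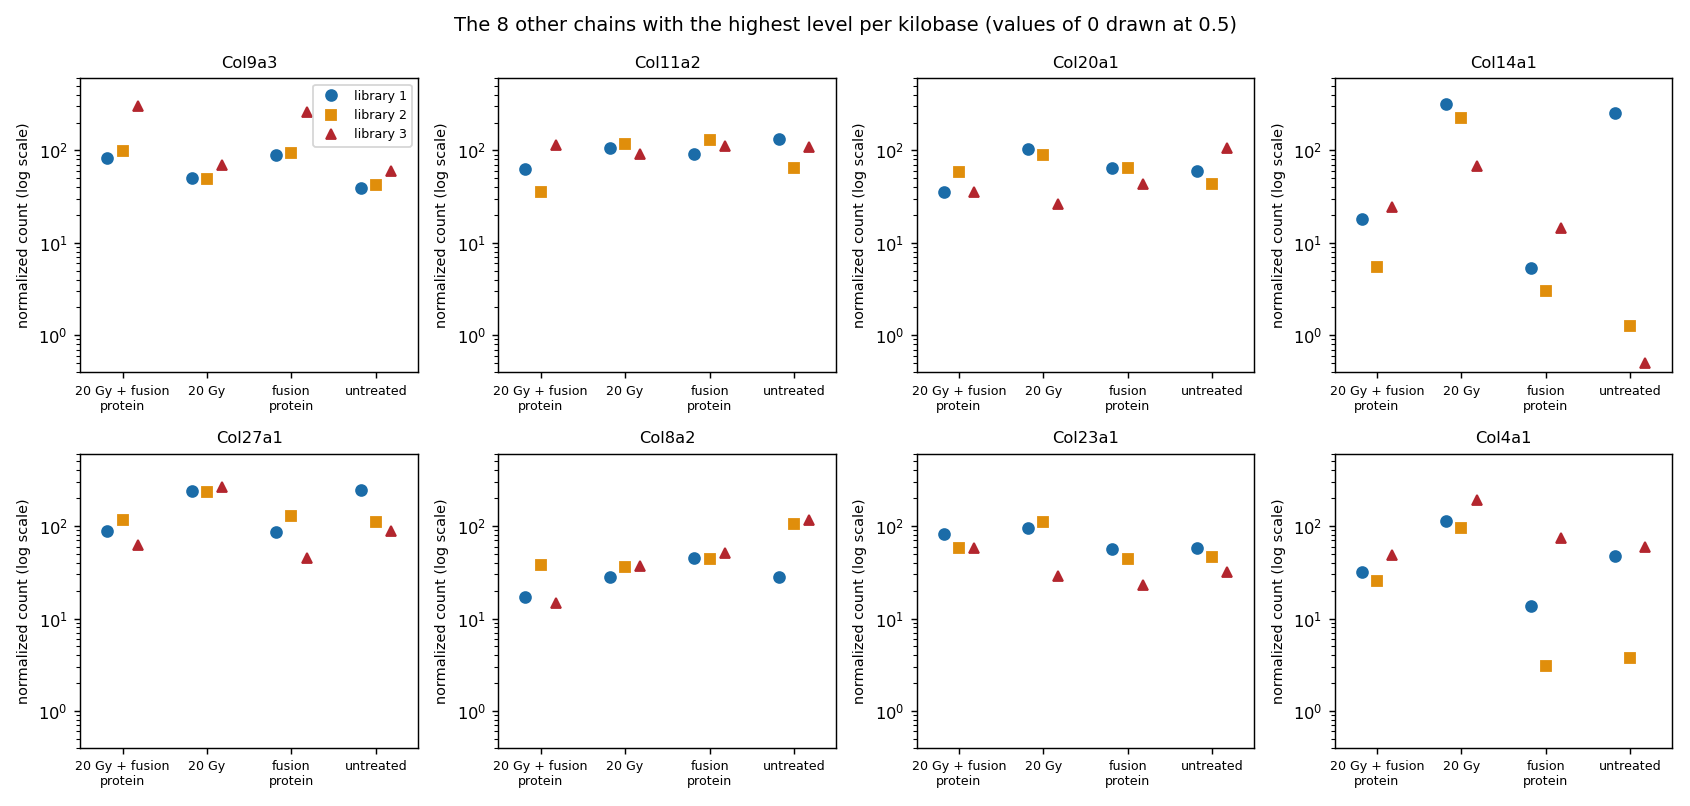
Normalized counts on a log axis of the 8 other chains with the highest level per kilobase, a panel per chain, for libraries 1 to 3 of each group from combined to untreated, with values of 0 drawn at 0.5. Col9a3 is higher in the 6 libraries with the fusion protein (83.6 to 300) than in the 6 without it (38.9 to 69.4), and Col14a1 is high in the 20 Gy libraries and in untreated library 1 (68.1 to 317).

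The 6 type IV chains of basement membranes are encoded as 3 head-to-head pairs, Col4a1 with Col4a2, Col4a4 with Col4a3, and Col4a6 with Col4a5. Their summed level was 107, 49.5 and 108 normalized counts in combined, 332, 278 and 417 in 20 Gy, 31.7, 36.5 and 144 in fusion protein and 86.9, 8.74 and 110 in untreated libraries, so the 20 Gy group lay above all other libraries. Col4a1 and Col4a2 encode the chains of the common form of type IV. Col4a1 had 31.5, 25.2 and 49.2 in combined, 114, 96.4 and 190 in 20 Gy, 13.7, 3.04 and 73.6 in fusion protein and 47.9, 3.74 and 60.0 in untreated libraries. Col4a2 had 18.0, 11.8 and 29.3 in combined, 98.6, 68.6 and 156 in 20 Gy, 6.35, 14.2 and 31.9 in fusion protein and 30.7, 2.5 and 24.8 in untreated libraries.

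In both genes the 20 Gy libraries lay above every library of the other groups. Col4a2 differed by 2.86 ± 0.83 for 20 Gy over untreated (limma adjusted p = 0.661) and by −2.40 ± 0.83 for combined over 20 Gy (0.339). Col4a1 differed by 2.41 ± 1.08 for 20 Gy over untreated (0.722). The first exons of these neighbours overlap on opposite strands.

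Col4a4 was the chain of smallest p in 3 comparisons and ranked second of all 18274 genes for 20 Gy over untreated. It encodes a chain of the kidney and cochlea form of type IV. It had 20.7, 3.15 and 12.1 normalized counts in combined, 35.2, 41.8 and 23.6 in 20 Gy, 7.40, 3.04 and 12.1 in fusion protein and 0.749, 0 and 0 in untreated libraries. Each treated group lay above the untreated one, and the 20 Gy group above the combined group. The log2 differences from untreated samples were 3.13 ± 0.74 for combined (limma adjusted p = 0.0742), 4.80 ± 0.74 for 20 Gy (0.282) and 2.66 ± 0.74 for fusion protein (0.198). Since untreated libraries held 1 read in all, the ratio of reads was 35.9 for combined (95% interval 6.1 to 1450), 106 for 20 Gy (18.6 to 4240) and 22.9 for fusion protein (3.69 to 948). Per kilobase, Col4a4 stood at 2.37, 4.42 and 13.6 times the silent receptor genes in 20 Gy libraries. The median other chain stood at 3.30, 3.90 and 13.6 times there. Col4a4 was at 3.35, 1.495 and 2.86 times in combined and 3.68, 4.29 and 3.935 times in fusion protein libraries. In untreated libraries it was at 0.844, 0 and 0 times. The part of background reads in Col4a4 was not tested.

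Col4a3, its partner, had 20.7, 0 and 3.45 in combined, 26.4, 21.4 and 0 in 20 Gy, 2.12, 5.07 and 9.89 in fusion protein and 3.00, 0 and 0 normalized counts in untreated libraries. In 20 Gy library 3, with 23.6 for Col4a4 and 0 for Col4a3, the neighbours parted. Their annotated starts lie 71 bases apart, at chr1:82586850-82586920 in GRCm38.p6, and the stretch is printed on the minus strand, in the reading direction of Col4a4, from RefSeq. It holds none of the 3 motifs.
Col4a4: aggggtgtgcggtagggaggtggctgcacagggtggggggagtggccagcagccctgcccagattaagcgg
Col4a5 had 8.99, 0 and 4.32 in combined, 15.8, 11.8 and 41.9 in 20 Gy, 2.12, 10.1 and 16.5 in fusion protein and 2.25, 2.5 and 16.6 in untreated libraries. Col4a6 reached 41.4 and 37.5 in 20 Gy libraries 1 and 2, those richest in silent receptor reads, and at most 9.49 elsewhere.

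Type VI chains form a family of 6, all of which passed the filter. They summed to 64.7, 33.0 and 64.7 normalized counts in combined, 185, 134 and 398 in 20 Gy, 19.0, 35.5 and 67.0 in fusion protein and 4.49, 6.24 and 101 in untreated libraries. Col6a1, Col6a2 and Col6a3, the chains of the common type VI filament, were highest in 20 Gy library 3, at 98.2, 91.6 and 202, while Col6a4, Col6a5 and Col6a6 were at 1.31, 5.24 and 0 there and higher in 20 Gy libraries 1 and 2. Col6a3 differed by 4.63 ± 1.25 for 20 Gy over untreated (limma adjusted p = 0.602) and by 2.98 ± 1.25 for combined over untreated (0.349). Col6a1 differed by 4.11 ± 1.04 for 20 Gy over untreated (0.529) and by −2.74 ± 1.04 for combined over 20 Gy (0.419).

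The 4 transmembrane chains together had 98.4 to 153 normalized counts in combined, 52.35 to 224 in 20 Gy, 41.75 to 88.8 in fusion protein and 84.9 to 116 in untreated libraries, and the combined values lay above the fusion protein ones. Col7a1, the chain of anchoring fibrils, had 7.87 to 44.0 in combined, 18.3 to 54.6 in 20 Gy, 35.5 to 36.3 in fusion protein and 21.2 to 34.1 in untreated libraries. Col10a1, a short-chain collagen of growing cartilage, had 0, 0 and 1.73 normalized counts in combined, 11.4, 12.9 and 13.1 in 20 Gy, 1.06, 1.01 and 5.49 in fusion protein and 0 in all untreated libraries. Set against a floor of 3 counts over the untreated group, the ratio was 12.8 in 20 Gy and 2.55 in fusion protein samples. These are not lower bounds, since error in the 35 and 7 reads is left out. Col10a1 passed the filter through its 20 Gy values alone. Combined samples had 2 reads and 20 Gy samples 35, a ratio of 0.0457 with a 95% interval of 0.00533 to 0.178 (limma adjusted p = 0.104). Its exons overlap Nt5dc1 on the opposite strand, which had 5603 reads, so the source of the Col10a1 reads is uncertain. Col24a1, a fibril-forming chain, had 18.9, 14.9 and 11.2 in combined, 35.2, 6.43 and 7.85 in 20 Gy, 1.06, 0 and 0 in fusion protein and 0.749, 2.5 and 6.21 in untreated libraries. It was the gene of smallest p for combined over fusion protein, at 3.63 ± 0.81, but did not pass (limma adjusted p = 1). Fusion protein libraries held 1 read of it and combined libraries 53, a ratio of 42.5 with a 95% interval of 7.31 to 1710.

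The difference between the fusion protein's effect with and without radiation was fitted as an interaction. limma called 0 of 39 chains, against 0% of genes, with 4 chains at an unadjusted p under 0.05 against 1.03% of genes. edgeR and DESeq2 called 0 chains as well, but DESeq2 gave no adjusted p for at least Col1a1 and Col3a1. The median was −2.27 for the fibrillar and −1.50 for the other chains. Without 20 Gy library 3 the fibrillar median was −1.02, and Col1a1 and Col3a1 had the opposite sign, at 0.13 and 1.00. These comparisons share the untreated and the 20 Gy samples, so their values are not independent.

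Other genes of collagen biology were counted in fixed lists. Of 31 genes for folding, modification and crosslinking, 27 were tested and 1 passed in 1 comparison, combined over 20 Gy, where 1.03% of all genes did. P3h2, a prolyl hydroxylase that modifies basement membrane collagen, fell in combined over 20 Gy samples, with 19.8, 10.2 and 9.49 normalized counts in combined, against 243, 216 and 82.5 in 20 Gy libraries (−3.61 ± 0.73, limma adjusted p = 0.0411). The other groups held 21.2, 18.2 and 10.99 in fusion protein and 237, 76.1 and 24.8 in untreated libraries. The call was lost when 20 Gy library 1 or 2 or any combined library was left out, at adjusted p-values of 0.0974 to 0.205. It was also lost with edgeR (0.0544), protein-coding scaling (0.0681), the silent receptor covariate (0.0862) and without the 3 libraries richest in silent receptor reads (0.769). Serpinh1, the collagen chaperone HSP47, was chosen after its values were seen and had 28.8, 20.4 and 75.1 in combined, 35.2, 26.8 and 585 in 20 Gy, 9.52, 17.2 and 151 in fusion protein and 16.5, 114 and 119 in untreated libraries.

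No gene of the breakdown (13 tested), receptor (12), other fibrous matrix (11) or basement membrane (12) lists passed in any comparison. For 20 Gy over untreated samples the 11 matrix genes were all higher, with a median of 2.53, as were the 12 basement membrane genes (median 1.15). Of 13 breakdown genes, 11 were higher (median 1.58), while 53.3% of all tested genes were. A list gene can pass the filter through its high group alone, so these counts and those that follow are descriptions. Prrx1 of the fibroblast list, for example, reached 10 only in 20 Gy libraries, at 15.0, 11.8 and 17.0. The receptors had 9 of 12 higher and a median of 0.61, and the 27 modifying enzymes 22 higher and a median of 0.41. Some marker lists of other cells moved the same way in that comparison. There 11 of 11 melanocyte genes were higher (median 1.98), as were 9 of 9 macrophage genes (1.42) and 5 of 5 fibroblast genes (2.19). Endothelial genes did not follow, with 2 of 6 higher (−0.13). The pericyte list had 5 of 8 higher (0.60), muscle and fat 3 of 5 (1.70) and sorted leukocytes 10 of 12 (0.49). Silent receptor reads were most frequent in 20 Gy libraries 1 and 2. The part of these cells and reads was not tested. For combined over 20 Gy the medians of the 5 lists were −0.80, −1.22, −0.24, −0.70 and −0.36 in the same order. For combined over untreated they were 1.75, 0.33, 1.43, −0.34 and −0.09.

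Postn, which encodes the fibroblast matrix protein periostin, had 7.19, 33.0 and 62.1 normalized counts in combined, 29.9, 11.8 and 94.2 in 20 Gy, 1.06, 5.07 and 5.49 in fusion protein and 3.00, 2.5 and 0 in untreated libraries. Its 6 irradiated values lay above its 6 others. The versican gene Vcan, for a large matrix proteoglycan that myeloid cells also make, had 614, 395 and 1163 in combined, 319, 260 and 1352 in 20 Gy, 499, 85.1 and 569 in fusion protein and 36.7, 6.24 and 342 in untreated libraries. Thbs2, for the matrix glycoprotein thrombospondin 2, had 8.99, 0.786 and 25.9 in combined, 29.0, 15.0 and 74.6 in 20 Gy, 1.06, 0 and 0 in fusion protein and 0.749, 6.24 and 0 in untreated libraries. Vcan overlapped between 20 Gy and untreated libraries and Thbs2 did not.

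Lama2, for a laminin chain of basement membranes, had 14.4, 0 and 14.7 normalized counts in combined, 53.7, 30.002 and 36.6 in 20 Gy, 3.17, 0 and 8.79 in fusion protein and 0.749, 0 and 3.10 in untreated libraries. Agrn, for the basement membrane proteoglycan agrin, had 632, 503 and 1194 in combined, 178, 225 and 577 in 20 Gy, 513, 298 and 548 in fusion protein and 181, 122 and 219 in untreated libraries. Nid2, for nidogen 2, which links laminin and type IV networks, had 30.6, 25.9 and 6.91 in combined, 114, 107 and 47.1 in 20 Gy, 19.0, 22.3 and 14.3 in fusion protein and 77.9, 39.9 and 33.1 in untreated libraries. Lama2 was highest in the 20 Gy group, Agrn was higher in every combined and fusion protein library than in every untreated one, and Nid2 was lower in them.

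Among breakdown genes, the neutrophil collagenase gene Mmp8 had 252, 73.1 and 158 normalized counts in combined, 119, 55.7 and 181 in 20 Gy, 134, 1.01 and 19.8 in fusion protein and 46.4, 6.24 and 1.03 in untreated libraries. Mmp12, the macrophage elastase gene, had 16.2, 42.5 and 89.8 in combined, against 176, 154 and 853 in 20 Gy libraries, and 19.0, 0 and 133 in fusion protein, against 497, 43.7 and 75.5 in untreated libraries. The irradiated libraries held more Mmp8 than every untreated one. Adamts2, which removes the propeptide of fibrillar procollagens, had 11.69, 9.44 and 9.49 in combined, 21.1, 16.1 and 56.3 in 20 Gy, 3.17, 0 and 7.69 in fusion protein and 3.00, 0 and 5.17 in untreated libraries, so its irradiated libraries lay above the rest. Its relative Adamts14 was abundant, with 1842 to 2100 in combined, 1001 to 1220 in 20 Gy, 2470 to 4087 in fusion protein and 1719 to 2421 in untreated libraries, so the 20 Gy libraries were lowest and the combined ones lay within the untreated range. Of the receptors, the collagen-binding integrin gene Itga11 had 30.8, 35.4 and 9.16 in 20 Gy, against 0, 1.25 and 11.4 in untreated libraries, and the kinase receptor gene Ddr1 had 402, 303 and 190 in fusion protein, against 1170, 589 and 530 in untreated libraries.

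Fibronectin (Fn1), a matrix protein also made by macrophages, had 155, 79.4 and 227 normalized counts in combined, against 1766, 1559 and 6395 in 20 Gy libraries. The mannose receptor Mrc1, which takes up collagen fragments, had 69.2, 33.8 and 166 in combined, against 1336, 870 and 959 in 20 Gy libraries. Neither group pair overlapped, and neither gene passed the adjusted p of 0.05 in limma. Fibrillin 1 (Fbn1), a microfibril protein, had 270, 179 and 431 in combined, against 8.24, 4.99 and 45.5 in untreated libraries. Among marker lists, Fcgr1 of macrophages rose in combined samples, with 3576, 1819 and 4885 normalized counts, against 118, 29.96 and 394 in untreated libraries (4.81 ± 0.96, limma adjusted p = 0.0327). Kcnj8 of pericytes fell, with 30.6, 26.7 and 19.9 in combined, against 89.1, 97.4 and 65.2 in untreated libraries (−1.67 ± 0.33, adjusted p = 0.0312). The rest of its list did not follow it. Of 8 pericyte genes tested there, 6 were higher and 2 lower in combined samples, with a median of 0.29. Fcgr1 lost its call without untreated library 1 or 2 or any combined library (0.0617 to 0.173), and Kcnj8 without any library of either group (0.0501 to 0.178). Fcgr1 was also not called with edgeR, with only the groups compared, with the silent receptor covariate or without the libraries richest in silent receptor reads (adjusted p = 0.0542 to 0.181). Kcnj8 was also not called with no filter, with protein-coding scaling, in the last 3 of these fits or without the libraries numbered 3 (adjusted p = 0.0695 to 0.208).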

How the data were processed

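Per the submitters' processing notes, reads were checked with FastQC, trimmed with Trimmomatic, aligned with STAR to mm10 (GRCm38), counted with featureCounts and normalized with DESeq2. Versions, strand settings and the gene annotation are not stated in the sources used. The kit was a stranded total RNA kit for low input, per the labels. The deposited signal values are read counts that the authors divided by 1 size factor per library. Multiplying back gave whole reads within 0.001 in 100% of values. Of 55401 identifiers, 55141 (99.53%) matched GENCODE vM21 after the version was removed, and 6975 genes were at 0 throughout.

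Log2(normalized count + 1) of the 18274 genes with at least 10 in at least 3 libraries was fitted with limma 3.58.1 (trend, all 12 samples in 4 groups, residual degrees of freedom 8, prior 3.313). The two-sided p-values had Benjamini-Hochberg adjustment over all genes and a threshold of 0.05. The steps were tested on simulated data. On the recovered reads, edgeR 4.0.16 called 200 genes for combined and 110 for fusion protein against untreated, 152 for combined against 20 Gy and 0 in the other comparisons. DESeq2 1.42.0 was a further alternative. It gave no adjusted p for some chains, Col1a1, Col1a2 and Col3a1 among them, and these count as not called. For these chains a missing DESeq2 call is not a test result. Other alternatives were pseudocounts, filters, scalings, the replicate block, a covariate for silent receptor genes and left-out libraries. Length per gene is the union of its GENCODE exons. Intervals of read ratios are exact conditional binomial ones, and a group at 0 reads was set to 3 counts over the group.

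The members, gene lists and tests were chosen with earlier results of these data known. Named genes were the fibrillar chains, chains past the threshold, the 8 other chains highest per kilobase, the type IV pairs, and of each list the members past the threshold or the 2 of smallest p. Of the list members of smallest p, those in the text were picked after their values were seen, as were Dcn, Lum, Serpinh1 and the chains outside this rule. The fibroblast sum without Fap was added after the data were seen. Same-numbered samples had residual correlations of 0.334 to 0.389 for combined, 0.156 to 0.496 for 20 Gy and 0.473 to 0.621 for fusion protein against untreated, and 0.41 to 0.484 for combined against fusion protein, so the number was taken to pair them there. The labels do not say what it stands for. Sequences are RefSeq's, build GRCm38.p6. Read counts limit precision, since PCR copies are not independent molecules.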

Additional observations from a re-analysis of the deposited data

Results flagged for a closer look

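Col4a4 and Col10a1 were picked because both group pairs did not overlap and differed in direction with radiation. How many of all genes meet this rule was not counted. The interaction given below uses the same values, so it adds no support. Col10a1 also passed the filter through its 20 Gy values alone, so its contrast with that group is only a description. Without radiation, all 3 fusion protein values lay above all 3 untreated values, and after 20 Gy all 3 combined values lay below all 3 values of 20 Gy alone. The interaction was −4.33 ± 1.05 on the log2 scale for Col4a4 (limma adjusted p = 1) and −4.85 ± 1.14 for Col10a1 (limma adjusted p = 1), so neither passed the adjustment over all genes. Untreated libraries held 1 read of Col4a4 and 0 of Col10a1, and 20 Gy libraries 1 and 2 had the most reads on silent receptor genes. Leaving out 20 Gy libraries 1 and 2 and combined library 1 left 20 Gy library 3 alone in its group. The interaction was then −4.40 for Col4a4 and −4.68 for Col10a1. As the 20 Gy side is 1 library, these values cannot show whether the direction holds without background reads. The exons of Col10a1 overlap those of Nt5dc1 on the opposite strand.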

How the results depend on the processing

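In the main limma fit no chain was called in any comparison, and low read numbers limit what could be detected. With the replicate block, 6 chains were called for combined and 4 for 20 Gy against untreated, 1 for fusion protein against untreated and 0 for combined against fusion protein and for the interaction. For combined against 20 Gy, where same-numbered samples correlated at 0.01 to 0.505, the block called 2 (Col27a1 and Col9a3), against 4.56% of genes. The block changed no other call among the chains, P3h2, Fcgr1 and Kcnj8. DESeq2 called 3, 2 and 1 chains for combined against untreated, 20 Gy against untreated and combined against 20 Gy. A pseudocount of 5 called 1 for combined against 20 Gy, Col10a1, which passed the filter through its 20 Gy values alone. Leaving out the 4 libraries numbered 3 called 1 for combined against untreated (Col6a3). Leaving out 1 library gave 0 to 1 calls for combined against untreated and 0 to 0 elsewhere. The share of all genes called in these single-call fits is not given, so those calls are descriptions. Other fits gave 0.

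Directions turned for some chains and medians, none of them called. The median of the other chains stood at −0.007 for combined over untreated with the silent receptor covariate. For fusion protein over untreated it stood at −0.20 with a filter of 50 in 3 libraries, −0.075 without untreated library 2 and −0.005 without fusion protein library 3. The fibrillar median for combined over 20 Gy stood at 0.14 without 20 Gy library 3. For fusion protein over untreated, Col3a1 stood at −0.013 with a pseudocount of 5, −0.31 with edgeR, −0.32 with DESeq2, −0.54 without untreated library 1, −0.30 without untreated library 2 and −0.63 without fusion protein library 3. Col5a2 stood at −0.04 without untreated library 1 and −0.11 without fusion protein library 3. For combined over 20 Gy, Col1a1, Col1a2 and Col3a1 stood at 0.92, 0.14 and 1.11 without 20 Gy library 3, Col1a1 at 0.11 without combined library 1 and Col3a1 at 0.18 without the libraries numbered 3. Without these, Col1a2 stood at −0.083 for combined over fusion protein. In the interaction Col1a1 and Col3a1 stood at 0.13 and 1.00 without 20 Gy library 3. Over all fits that leave out 1 library, Col3a1 ranged from −0.63 to 1.17 and Col5a2 from −0.11 to 1.11 for fusion protein over untreated. For combined over 20 Gy, Col1a1 ranged from −2.12 to 0.92, Col1a2 from −2.42 to 0.14 and Col3a1 from −2.08 to 1.11. In the interaction Col1a1 ranged from −2.90 to 0.13 and Col3a1 from −2.18 to 1.00. Apart from the left-out libraries themselves, the cause was not tested. TMM scaling moved the median of all genes to 0.13 for combined over 20 Gy and 0.12 for the interaction.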
